A study of Mus musculus with 12 samples.

Results

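Potassium channel genes were taken as every gene whose symbol in the peak annotation starts with Kcn, without Kcnip4. They carried 3786 of the 250567 peaks in the 4 peak lists and made up 62 of the 11356 annotated genes. A peak is a stretch of target RNA found joined to 1 named small RNA. The RefSeq table for the same mouse assembly, without Kcnip4, holds 97 genes with such a symbol. Of these, 62 had a peak and 35 had none in these lists, among them Kcnq1, Kcna5, Kcnj8, Kcnn1 and Kcnk18. The 62 genes with a peak cover pore-forming subunits, their auxiliary subunits and 1 long noncoding RNA, Kcnq1ot1.

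The peaks come from chimeric RNA sequencing of Argonaute complexes of adult C57BL/6 mouse forebrain, in which a small RNA held by Argonaute is ligated to the RNA it sits on. Excitatory neurons were profiled with anti-myc pull-down of a tagged Ago2 in 3 libraries (excitatory), and the tag was switched on through Camk2a-Cre/ERT2. Whole forebrain was profiled with anti-Ago2 in 3 libraries numbered 5 to 7 (reps 5-7) and in 4 libraries numbered 1 to 4 (reps 1-4), with 2 control IgG libraries. The labels describe the same induction for all 12 samples, 2 mg of tamoxifen a day for 5 days and 14 to 21 days for expression, with tissue taken from mice aged 10 to 12 weeks. The labels leave unsaid whether the tag was present in the animals used for anti-Ago2 and IgG. The libraries of a group were pooled before peaks were called, so each list is a single observation with no spread between replicates. In the headers of the peak calling, excitatory and reps 5-7 carry the same 3 library numbers with a different letter after them, and reps 1-4 shares 0 with either. What a shared number stands for is unsaid, so lists that share numbers may share tissue, and in comparisons with reps 1-4 the set of libraries and the group cannot be told apart.

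MicroRNAs guide Argonaute proteins to messenger RNAs mainly by pairing of the seed, bases 2 to 8 of the small RNA, to the target, and lower the stability or translation of that target. Potassium channels set the resting potential, repolarise the action potential and control how often a neuron fires. Different families do this in different compartments, and the inward rectifier of astrocytes clears potassium from around active neurons.

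The mature small RNAs that carried the potassium channel peaks described here are printed from RefSeq for GRCm38.p6, with the seed in capitals. The sequence of miR-124-3p is not printed. The let-7 family, with miR-98-5p, is shown because its members met at a single place in Kcnj10.
let-7c-5p: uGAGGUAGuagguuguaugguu
let-7g-5p: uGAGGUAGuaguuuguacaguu
let-7b-5p: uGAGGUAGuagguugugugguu
let-7f-5p: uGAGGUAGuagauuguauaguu
let-7i-5p: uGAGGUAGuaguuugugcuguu
let-7a-5p: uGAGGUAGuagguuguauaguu
let-7e-5p: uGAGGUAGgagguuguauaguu
let-7d-5p: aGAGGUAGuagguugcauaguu
miR-98-5p: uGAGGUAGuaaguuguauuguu
The miR-29 family is shown because its members met at the start of Kcnh7.
miR-29a-3p: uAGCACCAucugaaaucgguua
miR-29b-3p: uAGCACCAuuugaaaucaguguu
miR-29c-3p: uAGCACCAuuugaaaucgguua
The other small RNAs are shown for their high scores on Kcnn2, Kcna2, Kcng1 and Kcnc1 (miR-9-5p), Kcnj2 and Kcnh7 (miR-26a-5p), Kcna2 (miR-137-3p and miR-103-3p) and Kcnt2 (miR-125b-5p and miR-125a-5p).
miR-9-5p: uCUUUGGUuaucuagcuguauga
miR-26a-5p: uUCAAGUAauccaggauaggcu
miR-137-3p: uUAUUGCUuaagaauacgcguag
miR-103-3p: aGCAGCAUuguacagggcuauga
miR-125b-5p: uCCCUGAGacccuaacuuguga
miR-125a-5p: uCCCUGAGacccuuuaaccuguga

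Target sequence could be read only where a peak fell inside a RefSeq promoter window, which reaches from 250 bases before to 50 bases after a gene start. The 5 potassium channel peaks read in this way were all of reps 1-4 and lay at 2 places, each with a stretch of the complement of the miR-29 seed. The capitals mark the letters complementary to the seed, and both lines are in the direction of transcription.
Kcnh7 5′ UTR, chr2:63184203-63184232, minus strand: ggtgtctcgaagTGGTGCTaatgggaagag
Kcnma1 coding sequence, chr14:23650144-23650173, minus strand: ttgctctcagcatTGGTGCcctcgtaatat
In reps 1-4 the Kcnh7 place carried miR-29a-3p and miR-29b-3p with a score of 12 each and miR-29c-3p with a score of 7. The full complement of the 7 seed bases, TGGTGCT, stood there once and was followed by an A. A peak of miR-99a-5p overlapping the same place, with a score of 8, had no complement of its own seed in its window. At the Kcnma1 place, where miR-29a-3p had a score of 3, 6 of the 7 letters matched (TGGTGC). For scale, TGGTGCT was present on either strand in 0.402% of 32851 windows of 30 bases and in 5.10% of windows of 300 bases taken at RefSeq gene starts, and TGGTGC, which it contains, in 1.21% and 14.0%. A match is a description of these letters.

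Potassium channel genes held 7 of 766 peaks in the excitatory list, which is 0.914% (95% Wilson interval 0.443 to 1.87). They held 20 of 3611 peaks in reps 5-7, or 0.554% (0.359 to 0.854), and 3759 of 246180 peaks in reps 1-4, or 1.53% (1.48 to 1.58). The 10 peaks of the IgG list included 0 on a potassium channel gene, which with so few peaks allows a share of up to 30%. The 7 excitatory peaks fell on 6 genes, the 20 peaks of reps 5-7 on 15 genes and the 3759 peaks of reps 1-4 on all 62. Over all peaks the share in reps 1-4 lay above that in reps 5-7 beyond both intervals. The order turned when reps 1-4 was cut to as many top-scoring peaks as reps 5-7 has (0.554% in reps 5-7 and 0.443% in reps 1-4). Among peaks in coding sequence and UTRs alone the shares were 1.03% in excitatory (0.473 to 2.23), 0.797% in reps 5-7 (0.511 to 1.24) and 0.760% in reps 1-4 (0.709 to 0.815), and these intervals overlapped. All intervals cover counting error only.

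**Figure D1:**
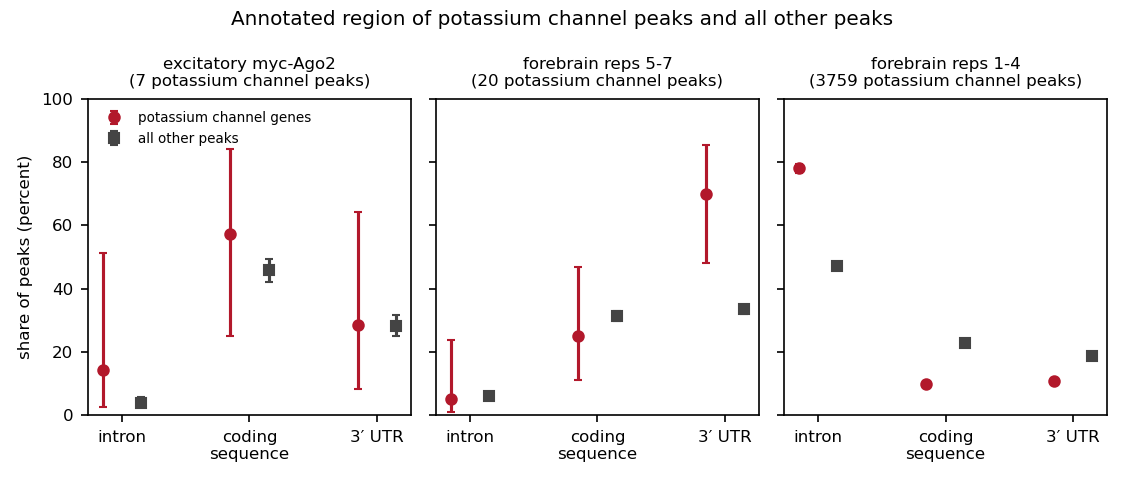
Share of peaks in percent (y axis) by annotated region (x axis) for potassium channel genes (red circles) and all other peaks (dark squares), with 95% Wilson intervals, in the excitatory list, reps 5-7 and reps 1-4. In reps 1-4 introns hold 78.1% of potassium channel peaks and 47.1% of all other peaks, while in reps 5-7 the 3′ UTR holds 70.0% and 33.4%. Among peaks in coding sequence and UTRs alone (not drawn) the reps 5-7 shares in the 3′ UTR are 73.7% and 50.7%.

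Where the peaks sat differed between the lists. In the excitatory list 4 of the 7 peaks were in coding sequence, 2 in a 3′ UTR and 1 in an intron. In reps 5-7, 14 of 20 were in a 3′ UTR, which is 70.0% (48.1 to 85.5) against 33.4% of all other peaks in that list. Another 5 were in coding sequence and 1 was in an intron. Among peaks in coding sequence and UTRs alone the 3′ UTR contrast was smaller, 73.7% (51.2 to 88.2) against 50.7%. In reps 1-4, 2934 of 3759 peaks were intronic, which is 78.1% (76.7 to 79.3) against 47.1% of all other peaks. Coding sequence held 369 peaks there (9.82% against 22.8%), 3′ UTRs 399 (10.6% against 18.8%) and 5′ UTRs 22. The remaining 35 peaks of reps 1-4 were those of Kcnq1ot1, annotated as antisense.

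A few long genes set the intron share of reps 1-4. Kcnd2 had 779 peaks, Kcnq5 501, Kcnma1 449, Kcnh7 347 and Kcnq3 325. Together these 5 genes held 2401 peaks, or 63.9% of the total, and 95.3% of their own peaks were intronic, but they held only 114 of the 790 peaks in coding sequence and UTRs. The other members had 47.6% of their peaks in introns (45.0 to 50.3), 23.6% in coding sequence and 25.6% in 3′ UTRs. Across the 62 members the number of intron peaks followed the RefSeq span of the gene with a Spearman rho of 0.756, beside 0.621 across 10294 genes with a peak, and the number of peaks in coding sequence and UTRs followed it with a rho of 0.269, beside 0.284. These are descriptions across genes of 1 list, and genes are not replicates. At the other end, Kcna2, Kcnj10, Kcnj2 and Kcna1 were among 26 members with no intron peak. In reps 1-4, 57 members had a peak in coding sequence and 46 in a 3′ UTR, while 25 had fewer than 10 peaks in all and 5 had only 1 (Kcnd1, Kcne4, Kcnj13, Kcnk13 and Kcns1).

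**Figure D2:**
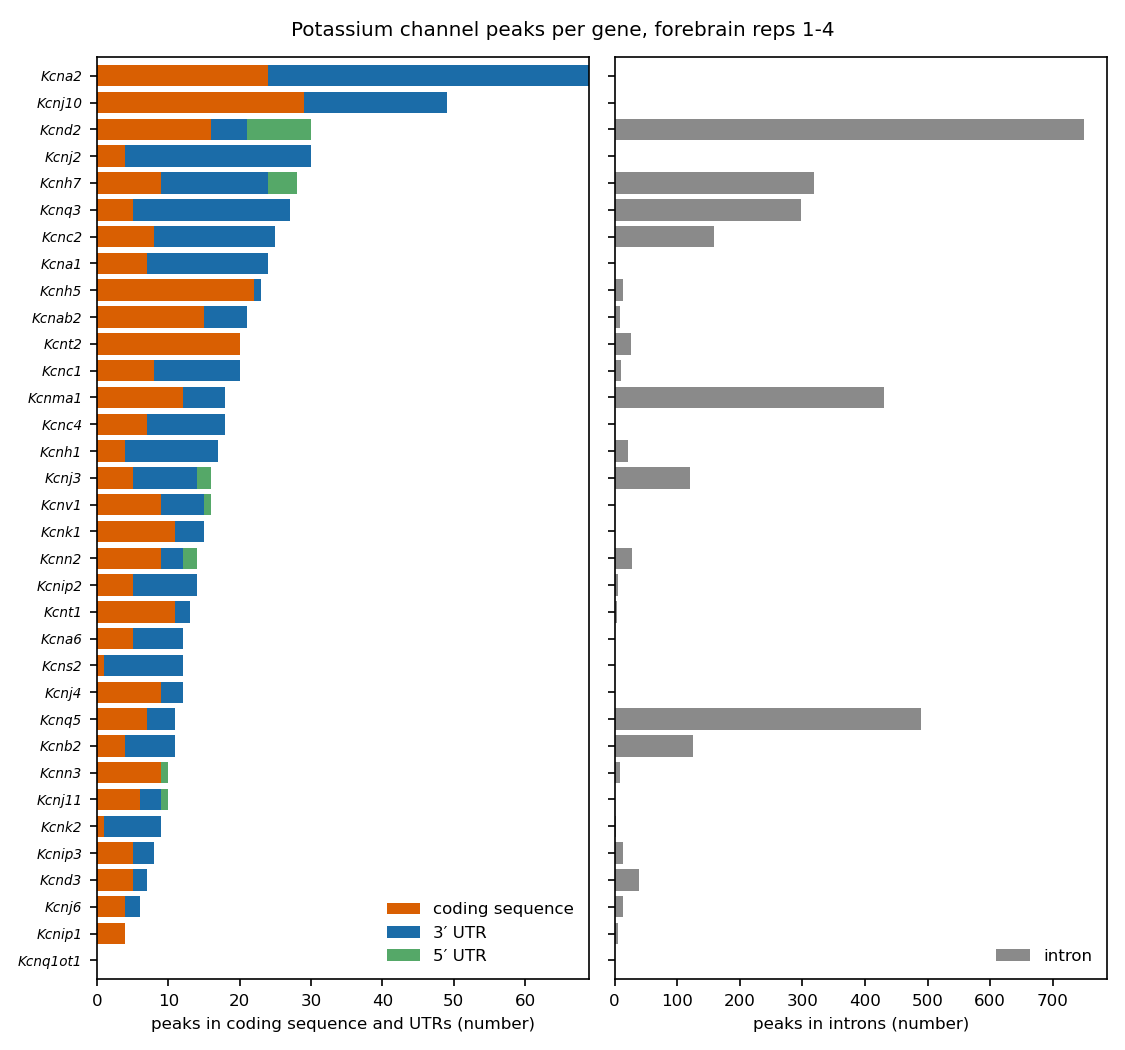
Number of peaks in reps 1-4 for potassium channel genes with at least 10 peaks (a few are not shown), in coding sequence and UTRs (left, stacked by region) and in introns (right, on its own scale). Kcna2, with 69 peaks in coding sequence and UTRs, has none in introns, and Kcnd2 has 749 in introns and 30 in coding sequence and UTRs.

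Intron peaks were also not spread evenly along the genes. In Kcnd2, 52.3% of 749 intron peaks lay in the first 25% of the RefSeq span and 3.34% in the last 25%. The first 25% of the gene held 64.9% of 490 intron peaks in Kcnq5, 66.5% of 319 in Kcnh7, 54.7% of 298 in Kcnq3 and 52.0% of 431 in Kcnma1. Kcnc2 had less of its weight there, with 29.6% of 159 intron peaks in the first 25%. The last 25% held 13.2% in Kcnc2 and 15.1% in Kcnma1. The weight on the start of the gene was that of long genes at large: over the 8 members with at least 100 intron peaks the median share in the first 25% was 52.2% (range 25.6% to 66.5%), and over 195 other such genes it was 48.5%, with quartiles of 32.4% and 59.6%. Per length of gene, intron peaks were densest in Kcnd2 with 146 per 100 kb, followed by Kcnq3 with 99.2, Kcnq5 with 86.8, Kcnc2 with 81.0, Kcnh7 with 65.0, Kcnj3 with 64.9, Kcnma1 with 60.5 and Kcnb2 with 28.6.

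**Figure D3:**
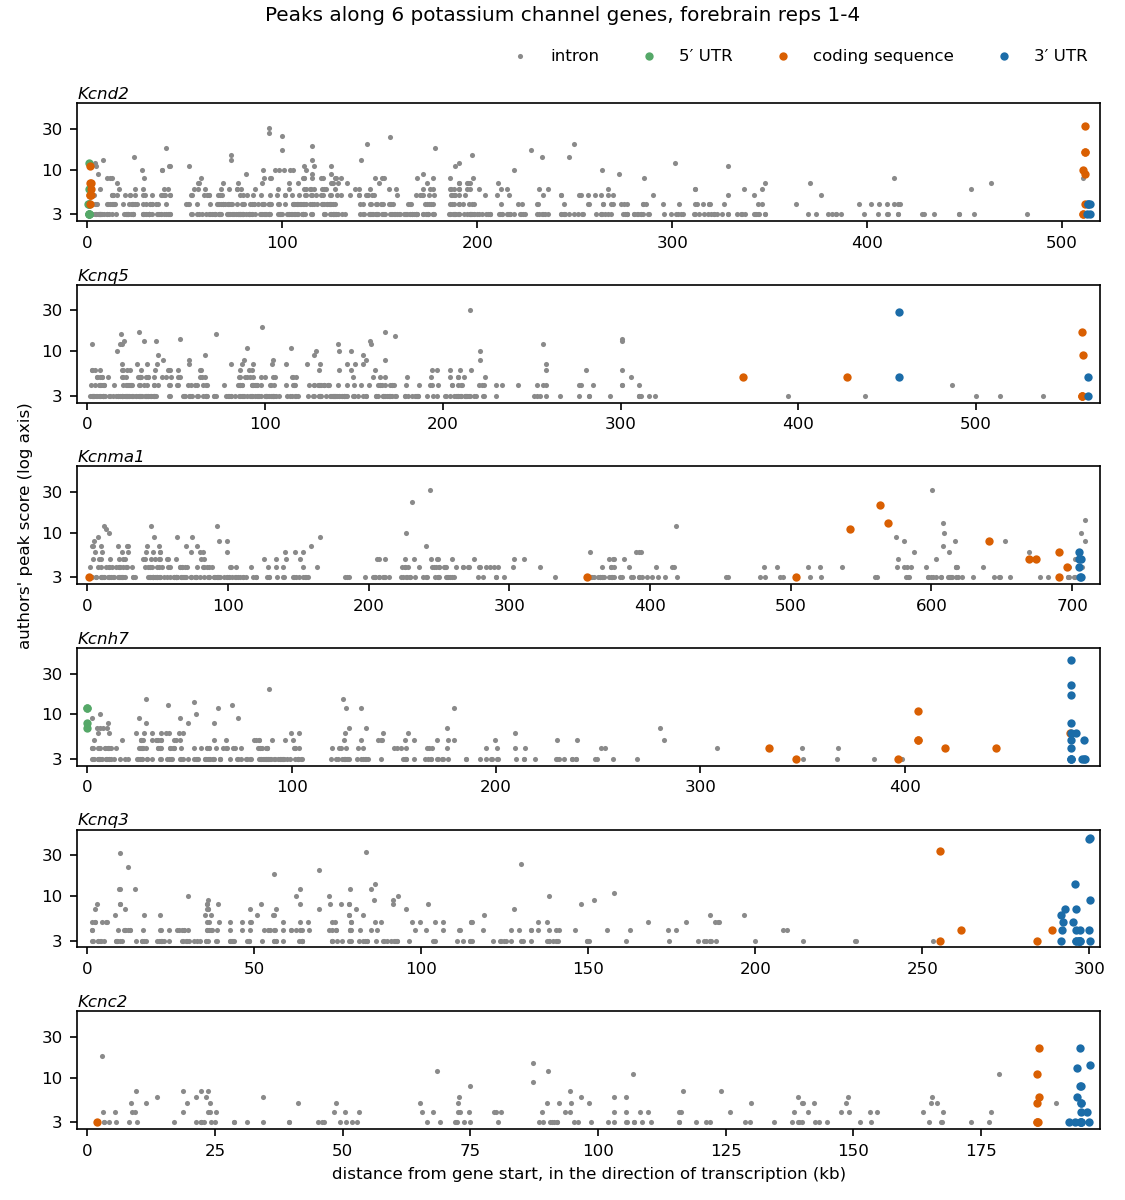
Each point is a peak of reps 1-4, placed by its distance from the gene start in the direction of transcription (x axis, kb) and by its score (y axis, log scale), for 6 long genes and coloured by region. Intron peaks thin out towards the end of Kcnd2, Kcnq5, Kcnh7 and Kcnq3, where the last 25% of the gene holds between 0.627% and 3.34% of them.

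Scores were higher outside introns, in potassium channel genes as in all others. The score is the authors' whole number for a peak, whose definition is not stated and whose lowest value of 3 equals the minimum of reads. The median score of potassium channel peaks was 4 in each of the 3 lists, and the highest score was 8 in excitatory, 9 in reps 5-7 and 211 in reps 1-4. In reps 1-4 a score of at least 10 was reached by 143 of 2934 intron peaks (4.87%), 71 of 369 coding sequence peaks (19.2%) and 82 of 399 3′ UTR peaks (20.6%). Among all other peaks the shares were 4.27%, 20.5% and 20.1% for the same regions, so the potassium channel genes did not stand apart. The highest score of a potassium channel peak annotated as intronic was 52, for miR-132-3p in Kcnn3, a calcium-activated channel of small conductance. That peak, at chr3:89674783-89674813, lay past the end of the RefSeq span of the gene at 89672494, so its intron label is uncertain.

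The voltage-gated pore-forming genes Kcna, Kcnb, Kcnc, Kcnd, Kcnq and Kcnh had 24 of 30 RefSeq genes with a peak. They carried 5 excitatory peaks, 10 of reps 5-7 and 2693 of reps 1-4, of which 83.5% were intronic. The Shaker-type genes Kcna1 and Kcna2 encode axonal channels that limit repetitive firing, and Kcna1 is mutated in human episodic ataxia. The Kcna1 3′ UTR held the strongest potassium channel peak in all 3 lists, miR-124-3p with a score of 8 in excitatory, 9 in reps 5-7 (tied there with let-7c-5p on Kcnj10) and 211 in reps 1-4. In reps 1-4 it spanned chr6:126640837-126640851, inside a stretch of overlapping peaks at chr6:126640824-126640878 that held 10 small RNAs, all but miR-124-3p with scores from 3 to 10.

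Kcna2 had 2 excitatory peaks, 1 peak in reps 5-7 and 69 in reps 1-4, of which 45 were in the 3′ UTR and 24 in coding sequence. Its excitatory peaks were miR-124-3p in coding sequence with a score of 4, at a place that scored 60 in reps 1-4, and miR-103-3p in the 3′ UTR with a score of 3, at a place that scored 53. The reps 5-7 peak was miR-9-5p in the 3′ UTR, with a score of 6 there and 83 in reps 1-4. Farther along that 3′ UTR, at chr3:107110871-107110922, miR-137-3p had 2 peaks with scores of 57 and 49 in reps 1-4, in 1 stretch with miR-92b-3p at 22, miR-25-3p at 15 and miR-132-3p at 14. Kcna4, whose channels inactivate rapidly, had only 9 peaks in reps 1-4, but 1 of them, miR-124-3p in coding sequence, scored 91.

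The delayed rectifier gene Kcnb2 had 1 peak in reps 5-7, miR-29a-3p in the 3′ UTR with a score of 3, and 136 in reps 1-4, of which 125 were intronic. Among the Shaw genes, which support fast spiking, Kcnc2 had 184 peaks in reps 1-4, Kcnc1 31 and Kcnc4 19. In Kcnc1 the strongest peak was miR-9-5p in coding sequence at 57.

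Kcnd2 (chr6:21215346-21729805, plus strand), the dendritic A-type channel, had 1 peak in excitatory, 0 in reps 5-7 and 779 in reps 1-4. The excitatory peak was miR-124-3p in an intron with a score of 3, at a place that scored 17 in reps 1-4. The reps 1-4 peaks named 69 small RNAs, and miR-124-3p took 257 of them, or 33.0%. Only 30 of the 779 were in coding sequence or UTRs, where the strongest was miR-9-5p at 32. The related Kcnd3 had 46 peaks, 39 of them intronic, and Kcnd1 had 1.

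Kcnq3 and Kcnq5 encode subunits of the channels of the M-current, which muscarinic receptors close. Kcnq5 had no peak in excitatory or reps 5-7 and 501 in reps 1-4, 97.8% of them intronic, the highest intron share among members with over 100 peaks. Kcnq3 had 1 peak in reps 5-7, miR-124-3p in the 3′ UTR with a score of 6, which overlapped 2 reps 1-4 peaks with scores of 48 and 46. In the ether-a-go-go genes, Kcnh5 had 1 excitatory peak, miR-124-3p in coding sequence with a score of 3, at a place that scored 40 in reps 1-4, where 22 of its 37 peaks were in coding sequence. Kcnh7 had 1 peak in reps 5-7 and 347 in reps 1-4, and its strongest was miR-26a-5p in the 3′ UTR at 44, in a stretch with 7 other small RNAs. Kcnh1 had 38 peaks, Kcnh3 9, Kcnh2 4 and Kcnh4 3, all in reps 1-4.

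The electrically silent genes Kcnf, Kcng, Kcns and Kcnv, whose products form channels only together with Kcnb subunits, had 43 peaks in reps 1-4 on 7 genes and none in an intron (up to 8.20% by its interval). Kcnv1 led with 16 peaks and Kcns2 had 12, and the strongest of the family was miR-9-5p on the Kcng1 3′ UTR at 63. Kcns2 carried the only one in reps 5-7, miR-124-3p in the 3′ UTR with a score of 5 and of 34 in reps 1-4. Auxiliary subunits of voltage-gated channels had 89 peaks in reps 1-4. Kcnab2, a cytoplasmic beta subunit of Kcna channels, led with 29, and its coding sequence peak of miR-124-3p scored 6 in reps 5-7 and 81 in reps 1-4. Kcnip2, which binds Kcnd channels, had 1 peak in reps 5-7 and 19 in reps 1-4.

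Inward rectifiers had 1 excitatory peak, 5 in reps 5-7 and 263 in reps 1-4, on 9 of 15 RefSeq genes. Kcnj3, a subunit of the G protein-gated channels, had most of them, 137 in reps 1-4 with 88.3% in introns. Its excitatory peak was miR-124-3p in coding sequence with a score of 5, at a place that scored 47 in reps 1-4. Kcnj2 had 30 peaks in reps 1-4, 26 of them in the 3′ UTR, and 2 in reps 5-7 with a score of 3 each. These were miR-124-3p, which scored 84 in reps 1-4, and miR-26a-5p, which scored 47.

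Kcnj10, the potassium-buffering rectifier of astrocytes, had 0 peaks in excitatory, 3 in reps 5-7 and 49 in reps 1-4. All 3 peaks of reps 5-7 were let-7 in coding sequence, let-7c-5p with a score of 9, let-7a-5p with 5 and let-7f-5p with 3. In reps 1-4 the same place, chr1:172369016-172369091, carried 13 small RNAs, the most of any potassium channel site. Of these, 9 shared the let-7 seed, with scores of 83 for let-7c-5p, 33 for let-7g-5p, 32 for let-7b-5p, 31 for let-7f-5p, 26 for let-7i-5p, 25 for let-7a-5p, 9 for let-7e-5p, 5 for let-7d-5p and 3 for miR-98-5p. The other 4 scored 3 to 6. The 0 of Kcnj10 in excitatory says little, since it allows a share of up to 0.392%, above the 0.0831% that its 3 peaks make of reps 5-7. Of the astrocyte markers, 0 of 6 had a peak in excitatory, 4 of 6 in reps 5-7 (35 peaks, 27 of them on Slc1a2) and 6 of 6 in reps 1-4 (913 peaks). Their part in the Kcnj10 counts was not tested, and fewer cells of a type and less RNA per cell cannot be told apart.

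Among calcium-activated pore-forming genes, Kcnma1, the channel of large conductance, had 449 of the 510 peaks in reps 1-4, and no list other than reps 1-4 held any. Kcnn2 followed with 42, 1 of which, miR-9-5p in coding sequence, had the second highest score of all members at 92. The sodium-activated Kcnt2 had 47 peaks, with a coding sequence place at which miR-125b-5p scored 72 and miR-125a-5p, of the same seed, 19. Background leak channels of the Kcnk family had 1 excitatory peak, 2 in reps 5-7 and 54 in reps 1-4, only 14.8% of them in introns. Kcnk1 led with 16, and its coding sequence peak of miR-124-3p scored 4 in excitatory, 3 in reps 5-7 and 39 in reps 1-4. Auxiliary subunits of Kcnma1 (Kcnmb2 and Kcnmb4) had 8 peaks.

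**Figure D4:**
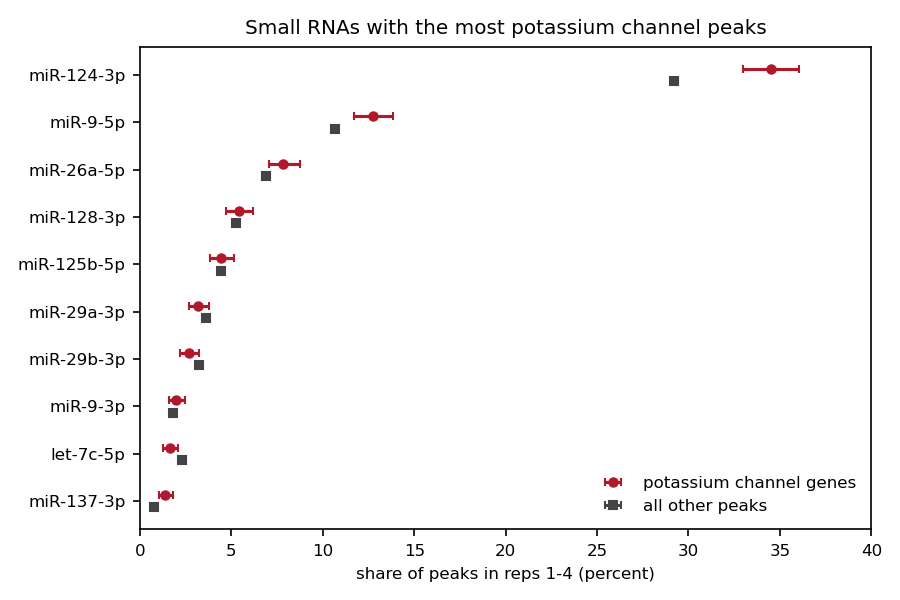
Share of reps 1-4 peaks in percent (x axis) for the 10 small RNAs with the most potassium channel peaks, on potassium channel genes (red circles) and on all other genes (dark squares), with 95% Wilson intervals. miR-124-3p makes up 34.5% and 29.2%, and miR-137-3p 1.38% and 0.751%.

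Of the 3759 potassium channel peaks in reps 1-4, 1297 named miR-124-3p and 478 named miR-9-5p. The next were miR-26a-5p with 295 peaks, then miR-128-3p with 203 and the brain-rich miR-125b-5p with 166. The miR-29 family gave 119 (miR-29a-3p) and 100 (miR-29b-3p), and miR-9-3p had 74, let-7c-5p 61 and miR-137-3p 52. In the excitatory list 6 of 7 peaks named miR-124-3p (85.7%, 48.7 to 97.4), against 37.0% of all other peaks, and 1 named miR-103-3p. In reps 5-7, 12 of 20 named miR-124-3p (60%, 38.7 to 78.1) against 28.0% of all other peaks. Among coding sequence and UTR peaks of reps 5-7 the contrast was smaller, 57.9% (36.3 to 76.9) against 33.9%. In reps 1-4 miR-124-3p made up 34.5% of potassium channel peaks (33.0 to 36.0) against 29.2% of the rest. Within introns it was no higher, 36.8% (35.1 to 38.6) against 37.8%. Within coding sequence it was higher, 26.6% (22.3 to 31.3) against 19.6%, and within 3′ UTRs the 24.1% of potassium channel peaks (20.1 to 28.5) had an interval that held the 22.6% of the rest. miR-9-5p took 12.7% (11.7 to 13.8) against 10.6% over all regions, and 13.2% (12.0 to 14.5) against 11.5% within introns. Within coding sequence and UTRs its 11.4% (9.36 to 13.8) had an interval that held the 10.0% of the rest. Over all regions miR-137-3p, with 1.38% (1.06 to 1.81), stood above its 0.751% of the rest. Small RNAs with the let-7 seed took 6.20% (5.47 to 7.01) against 8.85% over all regions. Within introns, where most potassium channel peaks lay, they took 4.74% (4.03 to 5.57) against 4.42%, and within coding sequence and UTRs 11.8% (9.71 to 14.2) against 14.1%, so that both intervals within regions reached the value of the rest. miR-137-3p was above the rest within introns, 1.19% (0.859 to 1.65) against 0.686%, and within coding sequence and UTRs, 2.03% (1.25 to 3.26) against 0.794%. These shares are not tests over replicates, and peaks on 1 gene share their target.

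Peaks of different small RNAs often lay on the same stretch. The 3759 peaks of reps 1-4 merged to 3161 sites, of which 389 (12.3%) held at least 2 small RNAs, against 14.7% of all 183883 sites in that list. By region the order was not the same throughout: the share was 10.0% in introns against 8.59% of all intron sites, 22.7% against 24.6% in coding sequence and 24.3% against 24.9% in 3′ UTRs. At least 5 small RNAs met at 20 of the sites. Several of these held members of 1 seed family: let-7 in Kcnj10 and miR-30 members beside miR-9-5p in the Kcnh5 coding sequence. An intron place of Kcnd2 at chr6:21330386-21330438 held 5 let-7 members, led by let-7c-5p at 19.

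Each gene's number of peaks in a list was set against its number in another by a two-sided Fisher's exact test, and p was adjusted after Benjamini and Hochberg over all genes with 10 or more peaks in both lists together. The test compares pooled lists, not conditions. Excitatory against reps 1-4 gave 37 members among 4103 genes tested, and 0 were called. Of all genes, 0.268% were called higher and 0% lower in excitatory. With 766 excitatory peaks a lower call of a member was hardly within reach. Kcnq5, at 0 against 501 peaks, had an unadjusted p of 0.415 by Fisher's exact test. The 0 calls thus do not show equal shares. At an unadjusted p under 0.05 there was 1 member, and the lowest adjusted p of a member by Fisher's exact test was 1. Excitatory against reps 5-7 left 32 genes with enough peaks, none of them a potassium channel gene, so no member was tested (9.38% of the 32 were called higher and 12.5% lower). Reps 5-7 against reps 1-4 gave 37 members among 4132 genes, and 1 was called, Kcnd2, beside 0.678% of all genes called lower in reps 5-7 and 0.653% called higher. Kcnd2 had 0 of 3611 peaks in reps 5-7, which allows a share of up to 0.0831%, against 0.316% in reps 1-4 (adjusted p = 0.00397, Fisher's exact test). Among the peaks of all other genes, 6.04% in reps 5-7 and 47.1% in reps 1-4 were intronic, and the part of this in the Kcnd2 call was not tested. With coding sequence and UTR peaks alone the call was lost, at 0 against 30 peaks and an adjusted p of 1. So few peaks could not give a lower call, and 0 of all 3127 genes tested in this setting were called. Kcnq5, at 0 against 501 peaks (adjusted p = 0.0738), and Kcnma1, at 0 against 449 (adjusted p = 0.126), did not pass the same exact test. Of the 37 members, 10 had a higher and 27 a lower share of peaks in reps 5-7, a split like that of all 4132 genes (1166 higher and 2966 lower), with a median difference of -0.00772 percentage points beside -0.00569 over all genes tested.

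**Figure D5:**
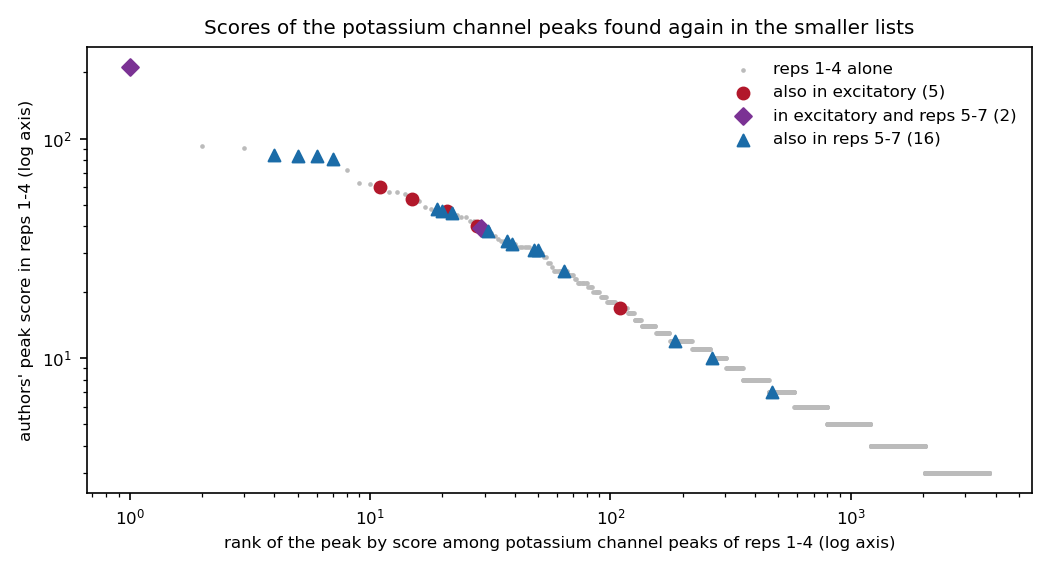
The 3759 potassium channel peaks of reps 1-4, ranked by score (x axis, log scale) and plotted at their score (y axis, log scale), with those found again in excitatory, in both smaller lists or in reps 5-7 marked. The marked peaks lie among the high scores, from 7 to 211, while the median of all is 4.

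A peak was counted as found again when the other list had a peak of the same small RNA on the same strand that shared 1 base or more with it. All 7 excitatory peaks were found in reps 1-4, beside 93.0% of the other excitatory peaks, and 2 of the 7, those of Kcna1 and Kcnk1, were found in reps 5-7 (28.6%, 8.22 to 64.1), beside 55.7% of the others. Of the 20 peaks of reps 5-7, 17 were found in reps 1-4 (85.0%, 64.0 to 94.8), beside 87.5% of the others. All 3 not found were miR-124-3p peaks, among them those in the 3′ UTR of Kcnip2 and in an intron of Kcnh7. The places found again had a median reps 1-4 score of 47 for excitatory and of 38 for reps 5-7. By reps 1-4 score, reps 5-7 held 0 of 2552 peaks with a score of 3 or 4, 1 of 904 with 5 to 9, 2 of 213 with 10 to 19, 10 of 74 with 20 to 49 and 5 of 16 with 50 or more. Excitatory held 0, 0, 1, 3 and 3 in the same classes. The counts for reps 5-7 sum to more than 17 because its Kcnq3 peak overlapped 2 of reps 1-4. The classes by score were not set beside those of other genes. Genes with a peak in all 3 lists were Kcna1, Kcna2 and Kcnk1, and 44 of the 62 genes had a peak in reps 1-4 alone. Over all genes, 11352 had a peak in reps 1-4, against 461 in excitatory and 1465 in reps 5-7. Most of all genes thus also had a peak in reps 1-4 alone.

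Genes that work with these channels without being members gave 0 peaks in excitatory, 13 peaks on 5 of 21 genes in reps 5-7 and 4429 peaks on 17 genes in reps 1-4. Kcnip4, a Kcnd-binding subunit left out of the members, had 5 in reps 5-7 and 3045 in reps 1-4, of which 3040 were intronic. Cntnap2, which clusters Kcna channels along axons, had 1 and 660. Of 7 pairs of a miRNA and a channel listed from the literature, 0 had a peak in excitatory, 1 in reps 5-7 and 2 in reps 1-4. miR-26a-5p on Kcnj2 was in both forebrain lists, and miR-9-5p on Kcnma1 had 59 peaks in reps 1-4, 54 of them intronic. These were 59 of the 449 Kcnma1 peaks, a share near the 12.7% that miR-9-5p made of all potassium channel peaks there. Peaks of miR-324-5p on Kcnd2 and of miR-129-5p on Kcna1 were in none of the lists. These small RNAs had only 188 and 132 of the 246180 peaks of reps 1-4, so a 0 on 1 gene says little. The remaining pairs, miR-1a-3p on Kcnj2 and miR-133a-3p on Kcnq1 and Kcnh2, also had none. In all of reps 1-4, miR-1a-3p had 24 peaks and miR-133a-3p 11.

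The excitatory label was set against cell type markers. Among 6 markers of excitatory neurons only Camk2a had peaks in that list (14), while the other 5, Slc17a7 and Nrgn among them, had 0. Inhibitory markers had 0 peaks, which allows a share of up to 0.392%, above their 0.111% of reps 5-7. Oligodendrocyte markers had 4 peaks, all on 1 of 6 markers, or 0.522% (0.203 to 1.33). Their share of reps 5-7, 0.360% (0.211 to 0.615), lay inside the excitatory interval, and that of reps 1-4, 0.128% (0.115 to 0.143), lay below it. As a share of each list, the excitatory markers made up 1.83% of excitatory peaks (1.09 to 3.04), 0.692% of reps 5-7 (0.469 to 1.02) and 0.263% of reps 1-4 (0.244 to 0.284), where all 6 had a peak. The higher share in excitatory rested on Camk2a alone. Reads per library were stated only as a range of 61 to 138 M reads, so how depth divides between the lists is unknown.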

How the data were processed

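Chimeric reads of 12 mouse forebrain libraries were analysed from 4 deposited peak lists with annotation. Per the calling summaries, the authors pooled the libraries of a group and set a minimum of 3 reads and of 2 libraries for a peak. The build, mm10, is per the submitters' processing notes, while aligner and caller names were not given in the sources used. The score in column 5 is a whole number the authors deposited, with no stated definition or scaling. The other deposited numbers used are the library numbers and settings of those summaries: those of excitatory and reps 5-7 differ only in a letter.

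Peaks were counted by annotated gene, region and small RNA with Python 3.11.15, pandas 2.3.3 and scipy 1.17.1. Annotated edges of features may be off by 1 base. Fisher's exact test per gene was checked on simulated lists. Reads were amplified without stated molecular identifiers, so intervals and the limit of 3 counts behind a 0 cover counting error only. Wilson intervals are at 95%. RefSeq sequences (GRCm38.p6, the same assembly as mm10) matched 113 of 137 small RNA names.

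The members, families, partner genes, pairs, markers and tests were chosen with earlier results of these data known. Named genes follow a rule: every member with an excitatory peak, the 10 with the most peaks in each forebrain list, the 5 with the most 3′ UTR and the 5 with the most coding sequence peaks, every member called, the 5 highest-scoring peaks of each list, the most-hit member of each family and the extremes of intron share. Other members, the sites with many small RNAs, the intron edges and the positions along genes were picked after their values were seen. Alternatives were other scores, regions, minimums, overlaps, merged sites, equal list sizes and members left out. A few members and markers enter all counts but are not reported here by name.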

Additional observations from a re-analysis of the deposited data

How the results depend on the processing

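No paired analysis was possible because the libraries were pooled before peaks were called, and leaving out a replicate could not be done for the same reason. Of 173 alternatives over 31 results, 111 stayed within their interval or on their side of the threshold, 8 more did so only because no member had enough peaks to be tested (7 of them in excitatory against reps 5-7), 48 moved, 5 lost and 1 gained a call. Only the Kcnd2 difference could change sign, and its 0 peaks in reps 5-7 in each setting tested fixed that sign. The order of reps 5-7 and reps 1-4 in the potassium channel share turned with equal numbers of top-scoring peaks (0.554% and 0.443%). It also turned in coding sequence and UTRs (0.797% and 0.760%). The potassium channel share was 0.390% in excitatory, 0.283% in reps 5-7 and 0.923% in reps 1-4 with scores summed. With only as many top-scoring peaks as excitatory has, it was 0.261% in reps 5-7 and 0.131% in reps 1-4, and with as many as reps 5-7 has, 0.443% in reps 1-4. In reps 1-4 it was also 1.72% over merged sites, 1.38% at or above the median score, 0.760% in coding sequence and UTRs, 1.47% for pore-forming genes and 0.557% without the 5 leading members, an alternative chosen after seeing the data. The cause of these moves was not tested.

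In reps 5-7 against reps 1-4, 1 member was called with all peaks and 2 at a minimum of 20 peaks (Kcnd2 and Kcnq5). With coding sequence and UTR peaks 0 were called. At or above the median score 0 were called, and Kcnd2 had an adjusted p of 0.243 by Fisher's exact test. With the larger list cut to its top scores 0 were called, as no member had enough peaks to be tested. Over all genes the calls were 55 of 4132 with all peaks and 62 of 2327 at the minimum of 20. They were 0 of 3127 with coding sequence and UTR peaks, 21 of 2889 at or above the median score and 3 of 67 with the list cut. Over the other alternatives of that comparison Kcnd2 kept its call, with an adjusted p by Fisher's exact test from 0.00223 to 0.0232.

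At or above the median score the intron share was 0% in excitatory, 0% in reps 5-7 and 73.3% in reps 1-4, beside 11.8% coding sequence and 13.3% 3′ UTR in reps 1-4. With scores summed these were 65.3%, 15.7% and 17.5%, without the leading member 73.3%, 11.8% and 13.2%, and without the 5 leading members 47.6%, 23.6% and 25.6%. Among pore-forming genes 79.8% were intronic. The miR-124-3p share in excitatory was 100% at or above the median score and 100% without the leading member. In reps 1-4 it was 37.9% at or above the median score, 39.0% with scores summed and 25.4% in coding sequence and UTRs. Of the reps 5-7 peaks, 60% were found in reps 1-4 at a reciprocal overlap of 50%, 95% within 20 bases and 95% with any small RNA. With 7 and 20 peaks in the smaller lists, differences of a few peaks were not detectable, and the score has no stated definition.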

Other observations

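Few peaks annotated as intronic in potassium channel genes touched the edge of the annotated intron. They were 20 of 2934 (0.682%, 0.442 to 1.05), against 3.64% of the intron peaks of all other genes. None of the 20 lay in the 5 genes with the most peaks, which held 2287 of the 2934. The other members thus had 20 among 647 intron peaks. Each of the 20 shared only the outermost 1 base of the annotated intron, and the longer ones ran on beyond it. Annotated edges may be off by 1 base, so these peaks may lie in exons. Of those 20, 6 had a score of at least 10 (30%, 14.5 to 51.9), against 136 of the 2905 peaks farther than 100 bases from the edge (4.68%). All other genes had the same order, 16.2% at the edge against 3.78% farther in, and the interval of the potassium channel genes holds that 16.2%. Kcnab2 had 5 of the 20, Kcnip1 and Kcnt1 had 2 each, and Kcnc1 and Kcnn2 were among those with 1. These peaks were chosen after their values were seen.

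Kcnq1ot1, the imprinted long noncoding RNA that runs antisense to Kcnq1, had 0 peaks in excitatory, 0 in reps 5-7 and 35 in reps 1-4. All 35 were annotated as antisense, 16 named miR-124-3p, and the highest score was 21. Kcnq1 itself had no peak in the lists.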
